A study of Mus musculus with 13 samples.

Results

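The junctions described here join a cut c-myc gene to S mu or S gamma 1, switch regions of the immunoglobulin heavy chain locus (IgH). They were taken as the lines of the c-myc tables that lie on chromosome 12 and carry the label Smu or Sg1, with 1 line standing for 1 junction. The rule found 209 junctions, 103 at S mu and 106 at S gamma 1, of 9577 junctions in the 7 c-myc libraries and 16455 in the whole series. No line carried both labels, and no position and strand occurred more than once within a library.

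The libraries come from high-throughput genome-wide translocation sequencing (HTGTS), which amplifies outward from 1 fixed DNA break, the bait, and reads the sequence joined to it, the prey. The bait was a cassette cut by the yeast nuclease I-SceI in c-myc, on mouse chromosome 15. Activated splenic B cells of genotype c-myc25-2xI, stimulated with anti-CD40 and IL-4, gave 3 libraries (replicates 14, 36 and 37), and SV40-transformed tail fibroblasts of genotype c-myc25xI;RosaI-SceI-GR, with no activation, gave 4 (replicates 1 to 4). An I-SceI cassette in c-myc was shared by both groups. The fibroblasts also carried an I-SceI fusion to the glucocorticoid receptor at the Rosa26 locus, whereas the source of the nuclease in the B cells is not given in the labels. The read identifiers place the 4 fibroblast libraries on 1 sequencing run and each B-cell library on a run of its own. Genotype, nuclease supply, cell type, activation and run therefore changed together and cannot be told apart. The labels do not state whether libraries of 1 group derive from different mice or cultures, so the p-values measure only the spread between these libraries, which may be technical.

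Switch regions are long, repetitive stretches upstream of the IgH constant genes. During class switch recombination, activation-induced cytidine deaminase (AID) acts on the donor region S mu and on a downstream acceptor region, the DNA is broken at both, and the broken ends are joined so that the antibody changes class. IL-4 with anti-CD40 directs mouse B cells towards IgG1, whose acceptor is S gamma 1, and IgE, whose acceptor is S epsilon. The letters AGCT are a preferred AID target. Joining of c-myc to a switch region is the hallmark rearrangement of mouse plasmacytomas and is related to that of sporadic Burkitt lymphoma.

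The following prey sequences show what kind of DNA the bait was joined to, 1 for each region and strand. Those chosen lay nearest the pooled median position of their region and strand among prey aligned in 1 block. They are read 5′ to 3′ away from the junction, as sequenced, from B-cell replicates 36, 14, 36 and 37 in that order, with AGCT in capitals and mm9 coordinates.
S mu, plus strand, chr12:114663137-114663177: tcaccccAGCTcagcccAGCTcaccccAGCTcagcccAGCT
S mu, minus strand, chr12:114663499-114663545: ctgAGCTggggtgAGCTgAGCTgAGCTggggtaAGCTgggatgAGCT
S gamma 1, plus strand, chr12:114574593-114574733: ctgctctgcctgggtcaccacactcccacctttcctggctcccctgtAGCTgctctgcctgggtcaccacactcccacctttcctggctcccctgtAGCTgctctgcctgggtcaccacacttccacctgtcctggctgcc
S gamma 1, minus strand, chr12:114574162-114574280: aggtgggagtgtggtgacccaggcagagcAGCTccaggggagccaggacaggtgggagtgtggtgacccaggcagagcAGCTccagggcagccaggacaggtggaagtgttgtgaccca
The S mu stretches of 41 and 47 bases hold 4 and 6 AGCT motifs, packed a few bases apart. The S gamma 1 stretches of 141 and 119 bases hold 2 each, 1 in each turn of a longer repeat. Both S mu stretches matched mm9 without a mismatch, whereas the longer plus-strand and minus-strand S gamma 1 stretches had 14 and 2 mismatches. In this the printed S mu stretches do not stand for their region. Over all junctions, mismatches per 100 bases averaged 2.20 ± 0.953 at S mu and 2.85 ± 1.92 at S gamma 1 (SD, n = 3). All 4 printed joins had extra bases before the prey, as did 40.2% of the 209 junctions.

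Both regions were frequent partners of c-myc in the B cells and were not seen in the fibroblasts. The B-cell libraries held 2918, 2850 and 878 junctions in replicates 14, 36 and 37, of which 321, 575 and 171 lay off chromosome 15. The S mu count was 23, 58 and 22 in that order, and the S gamma 1 count was 9, 67 and 30. As a share of junctions off chromosome 15, S mu took 7.17% (95% Wilson interval 4.82% to 10.5%), 10.1% (7.88% to 12.8%) and 12.9% (8.65% to 18.7%). The S gamma 1 share was 2.80% (1.48% to 5.24%), 11.7% (9.28% to 14.5%) and 17.5% (12.6% to 23.9%). Replicate 14 was the lowest for both regions. Its S gamma 1 interval lay below those of the other 2 libraries, whereas the 3 S mu intervals overlapped.

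The fibroblast libraries held 562 to 980 junctions, 129 to 224 of them off chromosome 15. They gave 0 junctions at S mu and 0 at S gamma 1, although 27 of the 662 junctions off chromosome 15 lay on chromosome 12. Taking 3 counts as the limit that a count of 0 allows, 0 of 662 allows a share of up to 0.453%, and single libraries allow 1.34% to 2.33%. The Wilson intervals of the same single libraries, which are two-sided, end at 1.69% to 2.89%. Intervals and limits cover counting error only, because PCR reads are not independent molecules.

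The mean share of both regions together off chromosome 15 was 20.7% ± 10.3 (SD, n = 3) in B cells and 0% in fibroblasts (n = 4). For S mu alone the B-cell mean was 10.04% ± 2.85 (SD, n = 3), and for S gamma 1 it was 10.7% ± 7.42 (SD, n = 3). Of all junctions, chromosome 15 included, the regions together took 1.10%, 4.39% and 5.92%, a mean of 3.80% ± 2.47 (SD, n = 3). B-cell and fibroblast libraries did not overlap in any of these 4 measures. Each gave a two-sided exact permutation p of 0.0571, the smallest that 3 libraries against 4 allow, and 0.186 after Benjamini-Hochberg adjustment over the 13 tests made here. None therefore passed the threshold of 0.05, which this design cannot reach.

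**Figure D1:**
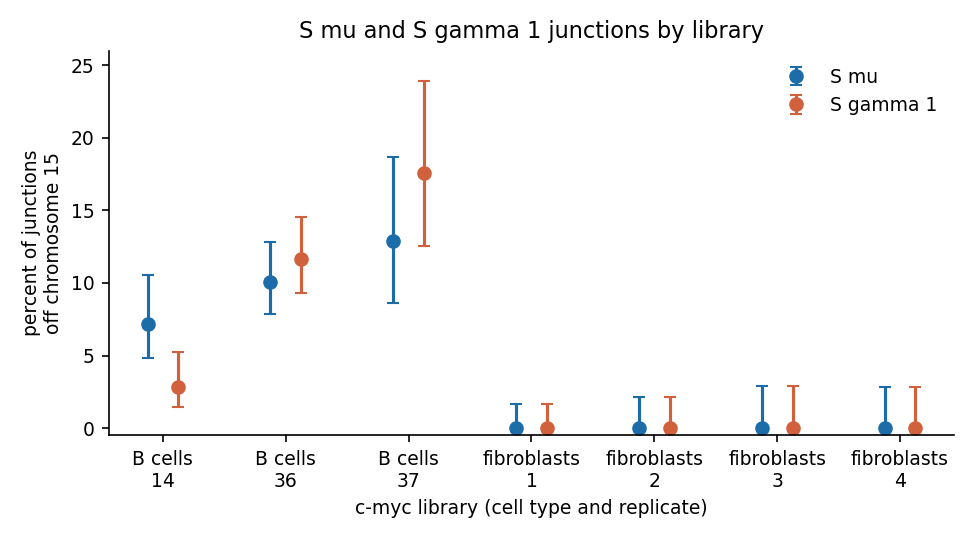
Percent of junctions off chromosome 15 that fell in S mu or S gamma 1, by library, with 95% Wilson intervals. The 3 B-cell libraries lie between 2.80% and 17.5%, and the 4 fibroblast libraries are at 0%.

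Within chromosome 12, the regions held 32 of 56, 125 of 168 and 52 of 65 B-cell junctions, which is 57.1%, 74.4% and 80%. S epsilon, the IgE acceptor, held 14, 11 and 5 junctions in replicates 14, 36 and 37. Fewer still were labelled S alpha (0, 2 and 1), and none S gamma 3, S gamma 2b or S gamma 2a. In replicate 14, S epsilon with 14 junctions was above S gamma 1 with 9, whereas in the other 2 libraries S gamma 1 was far above it. No test of that difference was made.

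A recognisable c-myc form of the cassette was read in the bait stretch of 196 of the 209 junctions. The form of the partner cassette was read in 0, and the other 13 held neither.

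The observed split between the regions varied among libraries, but the 3 intervals overlapped and the libraries were not tested against each other. S gamma 1 took 28.1% (95% Wilson interval 15.6% to 45.4%), 53.6% (44.9% to 62.1%) and 57.7% (44.2% to 70.1%) of the S mu and S gamma 1 junctions in replicates 14, 36 and 37. That is 0.391, 1.16 and 1.36 S gamma 1 junctions for each S mu junction. The mean of 46.5% ± 16.02 (SD, n = 3) differed from an even split by -3.53 percentage points, less than the spread between libraries (exact sign-flip permutation over libraries, two-sided p = 1, adjusted p = 1, smallest possible 0.25). Without replicate 14 the difference was 5.65 points in the other direction, and without replicates 36 and 37 in turn it was -7.09 and -9.14 points.

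S mu junctions were packed more densely. They lay between chr12:114661772 and chr12:114664538, a span of 2766 bp, with a median at 114663417 and quartiles at 114662895 and 114663767. S gamma 1 junctions lay between chr12:114572039 and chr12:114577035, a span of 4996 bp, with a median at 114574571 and quartiles at 114573741 and 114575333. The medians were 88.8 kb apart. Per kb of the spanned sequence there were 37.2 junctions at S mu and 21.2 at S gamma 1, pooled over the 3 libraries, and neighbouring positions were a median of 14.5 and 25 bp apart. The densest window of 1 kb at S mu, 114662979 to 114663978, held 65 of 103 junctions (63.1%), and 69.6%, 55.2% and 77.3% in replicates 14, 36 and 37. The densest at S gamma 1, 114573553 to 114574552, held 41 of 106 (38.7%), and 22.2%, 38.8% and 43.3% by library.

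Library medians at S mu were 114663492, 114663385 and 114663428 in replicates 14, 36 and 37, which is close together beside the quartile range. At S gamma 1 they were 114575348, 114574396 and 114574690, so the median of replicate 14, over 9 junctions, lay to the telomeric side of the others' medians. Junctions were spread along these spans rather than at single sites. At S mu 4 positions were hit on the same strand in 2 libraries, and at S gamma 1 it was 1. In none of these did the prey end at the same far base.

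**Figure D2:**
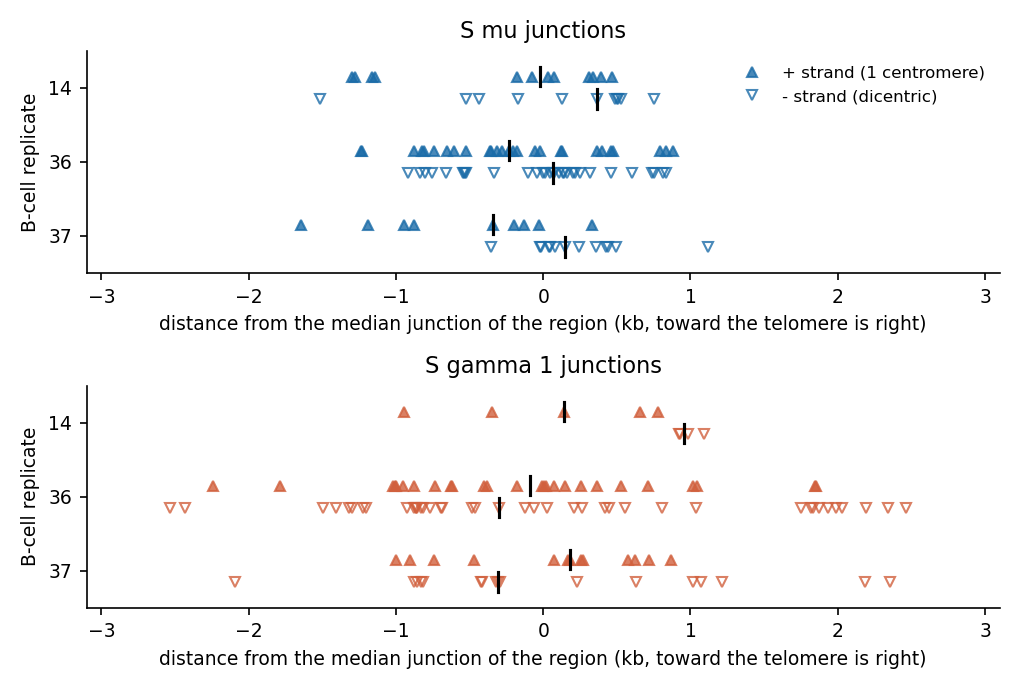
Position of every B-cell junction by library and strand, in kb from the median of its region, with triangles for strand and ticks at the median of each strand in each library. The S mu points spread over 2766 bp and the S gamma 1 points over 4996 bp, over the 3 libraries together.

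Strand tells which broken end of chromosome 12 was joined. Mouse chromosomes have their centromere at the start of the coordinates, and IgH lies towards the far end of chromosome 12, transcribed on the minus strand. Near the bait, the plus-strand share was 94.4% of 2703 B-cell junctions in the 10 kb on the telomeric side of the most frequent position (chr15:61818880) and 11.3% of 672 on the centromeric side. In fibroblasts the shares were 91.3% of 656 and 26.6% of 327. From this pattern the bait end was taken to be the one that stays attached to the centromere of chromosome 15. A plus-strand prey at IgH then joins that end to the telomeric part of chromosome 12 and has 1 centromere, and a minus-strand prey joins it to the centromeric part and is dicentric. A dicentric chromosome can be pulled apart at cell division.

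Both kinds were recovered at both regions in every B-cell library. At S mu, plus and minus junctions numbered 12 and 11 in replicate 14, 27 and 31 in replicate 36, and 9 and 13 in replicate 37. At S gamma 1 they numbered 5 and 4, 26 and 41, and 13 and 17. In replicates 36 and 37 the dicentric kind was in excess at both regions, and in replicate 14 it was 1 junction short of the other kind. Over the libraries together 117 of 209 junctions, or 56.0% (95% Wilson interval 49.2% to 62.5%), were of the dicentric kind, 53.4% at S mu and 58.5% at S gamma 1.

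The mean plus-strand share was 46.5% ± 5.63 (SD, n = 3) at S mu and 45.9% ± 8.66 (SD, n = 3) at S gamma 1. Against an even split, S mu differed by -3.46 points and S gamma 1 by -4.10 points (exact sign-flip permutation, p = 0.5 and adjusted p = 0.591 for each). Single libraries moved these values, to -0.64 without replicate 37 and -6.27 without replicate 14 at S mu, and to -0.56 without replicate 36 and -8.93 without replicate 14 at S gamma 1. Between the regions the difference was 0.65 points (exact sign-flip permutation p = 1, adjusted p = 1), and 2.66, -2.90 and 2.18 points without replicate 14, 36 and 37 in turn. The other 858 B-cell junctions off chromosome 15 had a plus-strand share of 52.5% ± 2.34 (SD, n = 3). The S mu and S gamma 1 junctions together differed from them by 0.18, -7.60 and -12.3 points in replicates 14, 36 and 37, a mean of -6.58 points with an SD of 6.31 (exact sign-flip permutation p = 0.5, adjusted p = 0.591). That mean was -9.96 without replicate 14 and -3.71 without replicate 37. Neither region departed from an even split by more than the SD of its libraries.

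**Figure D3:**
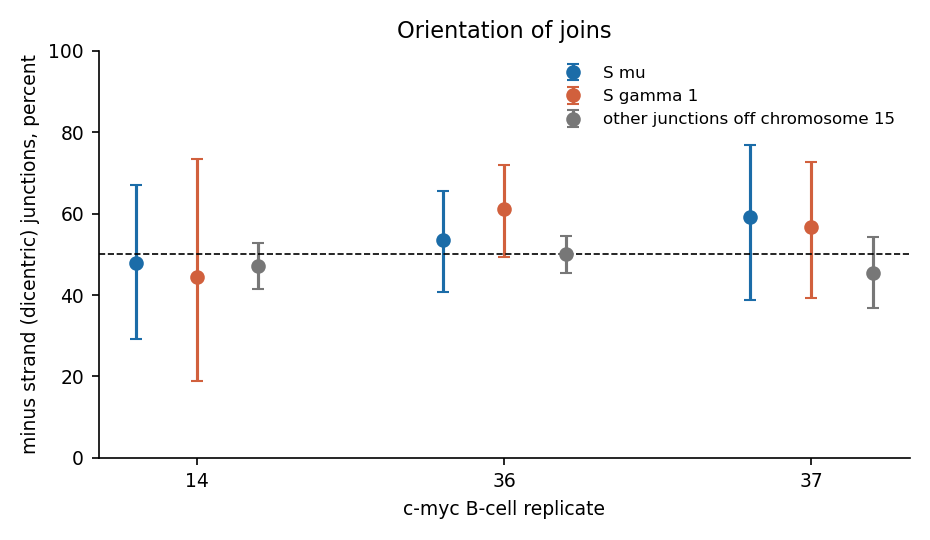
Percent of junctions on the minus strand, which join the bait to the centromeric part of chromosome 12 (dicentric), with 95% Wilson intervals, for S mu, S gamma 1 and other junctions off chromosome 15. Every interval of S mu and S gamma 1 in single libraries includes 50%.

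The strands were not spread alike along S mu. There the minus-strand median lay 387, 293 and 486 bp to the telomeric side of the plus-strand median in replicates 14, 36 and 37. Between 114662001 and 114662500 there were 8 plus-strand junctions and 1 minus-strand junction, and between 114663501 and 114664000 there were 11 and 21. At S gamma 1 the shift was 814, -209 and -487 bp, so its direction differed between libraries. Of its bins, the 6 junctions between 114573001 and 114573500, all from replicate 36, and the 7 between 114576501 and 114577000, from replicates 36 and 37, were on the minus strand. At its centromeric edge, 114572001 to 114572500 held 1 plus-strand and 3 minus-strand junctions, and 114572501 to 114573000 held 1 plus-strand junction. These strand differences along the regions were read off the positions and carry no test.

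**Figure D4:**
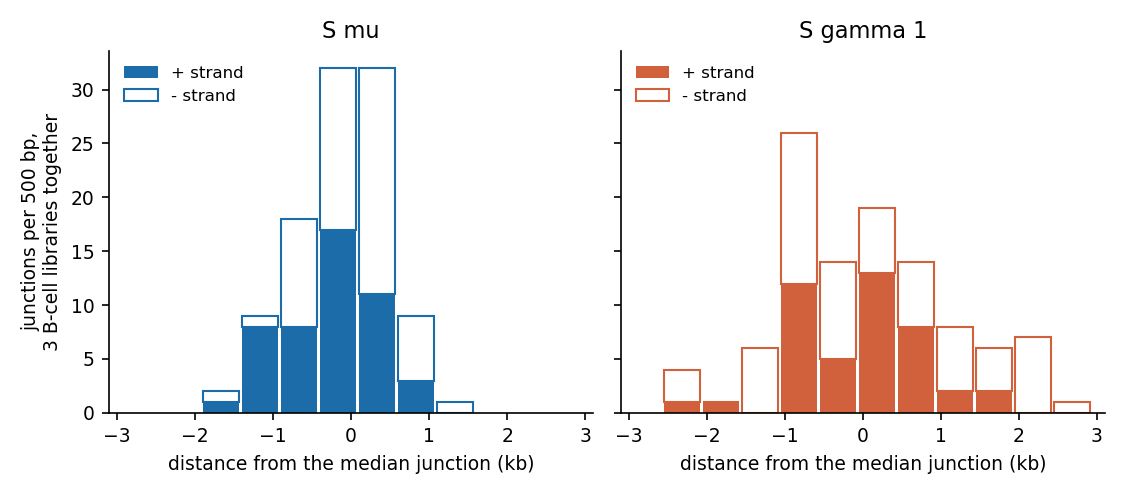
Junctions per bin of 500 bp along S mu and S gamma 1, with minus-strand junctions (open bars) stacked on plus-strand junctions (filled bars), summed over the 3 B-cell libraries. The fullest S mu bins hold 32 junctions each and the fullest S gamma 1 bin holds 26.

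The prey at S mu was dense in AGCT, which reads the same on both strands. It held 7.06, 8.37 and 9.51 motifs per 100 prey bases in replicates 14, 36 and 37, a mean of 8.31 ± 1.23 (SD, n = 3). S gamma 1 prey held 2.13, 1.68 and 1.78, a mean of 1.86 ± 0.239 (SD, n = 3), fewer than S mu in every library. S epsilon prey lay between them at 3.65, 4.40 and 4.24. Other junctions off chromosome 15, S epsilon among them, held 0.744, 0.612 and 0.619. S mu and S gamma 1 prey together exceeded these others by 4.56 motifs per 100 bases, higher in 3 of 3 libraries and by far more than the spread (p = 0.25 by exact sign flips over libraries, which is the lowest value 3 libraries allow, and 0.406 when adjusted). The motif was counted in the mm9 letters of lines chosen for lying in these regions. The excess is therefore a property of the regions chosen, and the test adds nothing about the junctions.

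The share of junctions with the motif was followed along the prey, away from the junction. An AGCT stood in prey bases 1 to 20 in 63 of 91 S mu junctions, 69.2% (95% Wilson interval 59.1% to 77.8%), and in bases 21 to 40 in 73.5% (61.99% to 82.6%) of the 68 that reach so far. It was 62.8% of 43 in bases 41 to 60 and 55.2% (37.5% to 71.6%) of 29 in bases 61 to 80. For S gamma 1 the shares over the same 4 stretches were 27.3% of 99, 25.9% of 85, 37.9% of 66 and 20% of 50. The background in other junctions off chromosome 15 stayed between 10.5% and 11.4%. No test was made along the prey. Only stretches aligned without a gap entered these counts.

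The mm9 letters, as the tables give them, could be read back where a prey aligned in 1 block, over 69.4% of the S mu span and 58.3% of that of S gamma 1. The c-myc libraries never gave different letters for 1 position. Tables of the same series with the bait in IgH gave the same letters at 1364 of 1364 shared S gamma 1 positions, but at 216 of 1070 at S mu, and at 977 of 1070 when moved by 1 base. Which set holds the mm9 position at S mu was not settled, so S mu coordinates could be off by 1 base. In the read-back letters S mu held 118 AGCT motifs, 6.15 per 100 bases, and S gamma 1 held 53, or 1.77 per 100. On the minus strand, the coding strand of IgH, G made up 36.9% and 38.9% of the letters and C 15.5% and 18.6%. Comparing each region with itself, S mu letters were equal most often at shifts of 10 bp (53.0%) and 5 bp (50.5%), beside a median of 25.1% over the shifts tried. S gamma 1 peaked at 49 bp (66.3%), beside a median of 27.6%, which is the repeat seen in its printed sequences.

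These repeats bear on how exactly a junction can be placed. The first 30 prey bases occurred in more than 1 place of the read-back letters in 18 of 84 S mu junctions (21.4%) and 38 of 99 S gamma 1 junctions (38.4%). Because those letters cover only part of each region, the true counts could be higher. Positions are therefore the authors' placements, and how far repeats moved them was not tested.

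Extra bases between the bait letters and the aligned prey were more frequent in the S mu and S gamma 1 joins together than in other joins. Where the prey does not start right after the known bait letters, the bases between are called an insertion, and bases that could belong to either side are microhomology. Prey bases left unaligned next to the junction would also count as an insertion. Member prey had a mean of 2.62 mismatches per 100 bases, against 0.640 in other junctions off chromosome 15. The part of this in the insertion counts was not tested. Insertions occurred in 26.1%, 41.4% and 40.9% of S mu junctions and 55.6%, 41.8% and 40% of S gamma 1 junctions in replicates 14, 36 and 37, beside 25.95%, 21.8% and 22.0% of other junctions off chromosome 15. In replicate 14 S mu thus stood level with the others. S epsilon, counted among the others, had insertions in 35.7% of 14, 18.2% of 11 and 0% of 5 junctions. The test covered S mu and S gamma 1 together and not each alone. For the regions together the mean was 38.8% ± 3.87 (SD, n = 3), against 23.3% ± 2.32 (SD, n = 3) in the others. The difference of 15.5 points was 8.42, 19.8 and 18.4 by library, positive in 3 of 3 (p = 0.25 by exact sign flips over libraries, which is the lowest value 3 libraries allow, and 0.406 when adjusted). Insertions under 10 bases were found in 31.6% ± 2.49 of member junctions and 14.3% ± 4.46 of the others (SD, n = 3).

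Some longer insertions at the members held switch-region letters. Of 20 insertions of 16 bases or more, 10 contained a run of 16 bases found on either strand of the read-back letters of S mu or S gamma 1, and 6 a cassette word of 10 bases. Among 60 such insertions at other junctions the counts were 2 and 21. This comparison was added after the junctions were seen and carries no test. Prey bases left unaligned next to a member junction would hold such runs, and at other junctions they mostly would not. The letters searched were also read back from prey in these same regions. The counts therefore do not tell inserted switch-region bases from unaligned prey.

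Microhomology was found in 6.25%, 14.4% and 3.85% of the member junctions and 8.30%, 14.7% and 13.6% of the others. The mean difference of -4.02 points was smaller than its SD of 5.01 points (n = 3, exact sign-flip permutation p = 0.25, adjusted p = 0.406). Without replicate 37 it was -1.18 points. A blunt join counts as microhomology where its bases match by chance. The size of the difference moved with the number of reads asked to share a bait word, from -7.43 to -0.39 points, and it turned to 1.80 points when only prey of 100 or more aligned bases were kept.

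Prey at S mu and S gamma 1 also aligned less cleanly. S mu prey had 1.14, 2.504 and 2.97 mismatches to mm9 per 100 bases in replicates 14, 36 and 37, and S gamma 1 prey had 0.640, 4.09 and 3.82. Other junctions off chromosome 15 had 0.381, 0.764 and 0.774, and S epsilon prey 0.365, 0.471 and 1.06. S mu and S gamma 1 were each above the other junctions in every library, whereas S epsilon was above them only in replicate 37. Replicate 14 was the lowest throughout. Alignments broken into more than 1 block made up 39.1%, 46.6% and 36.4% at S mu and 11.1%, 29.9% and 16.7% at S gamma 1. In the other junctions they made up 3.46%, 9.11% and 8.40%, and at S epsilon 21.4% of 14, 0% of 11 and 0% of 5.

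Many mismatches recurred at the same place. In prey aligned in 1 block, S gamma 1 had 285 mismatches in 7349 bases, and 60 of the 138 mismatched positions read more than once showed the same base in at least 2 reads, 32 of them in at least 2 libraries. At S mu there were 112 mismatches in 5231 bases, with 15 of 62 such positions recurrent and 7 shared by libraries. Transitions made up 46.7% of the mismatches at S gamma 1 and 56.3% at S mu. Whether they stem from the strain, from placement in repeats or from changes made in the cells was not tested.

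Aligned prey was a median of 48, 88 and 86 bases long for the members in replicates 14, 36 and 37, and 50, 109 and 98 for the other junctions. The mean difference was -11.7 bases, and -7 without replicate 36, with shorter prey in 3 of 3 libraries (p = 0.25 by exact sign flips over libraries, which is the lowest value 3 libraries allow, and 0.406 when adjusted).

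Replicate 14 stood apart in more than its shares. Its reads had a median length of 205 bases, against 272 and 270 in the other B-cell libraries and 336 to 345 in the fibroblasts. In 80.6% of its other junctions the prey's far end was GG, against 10.7% and 14.3% in replicates 36 and 37, and for its member junctions the share was 37.5%, against 18.4% and 11.5%. The part of these differences in its low S gamma 1 share was not tested. Without it the mean share of both regions off chromosome 15 was 26.1% rather than 20.7%, and that of S gamma 1 was 14.6% rather than 10.7%.

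**Figure D5:**
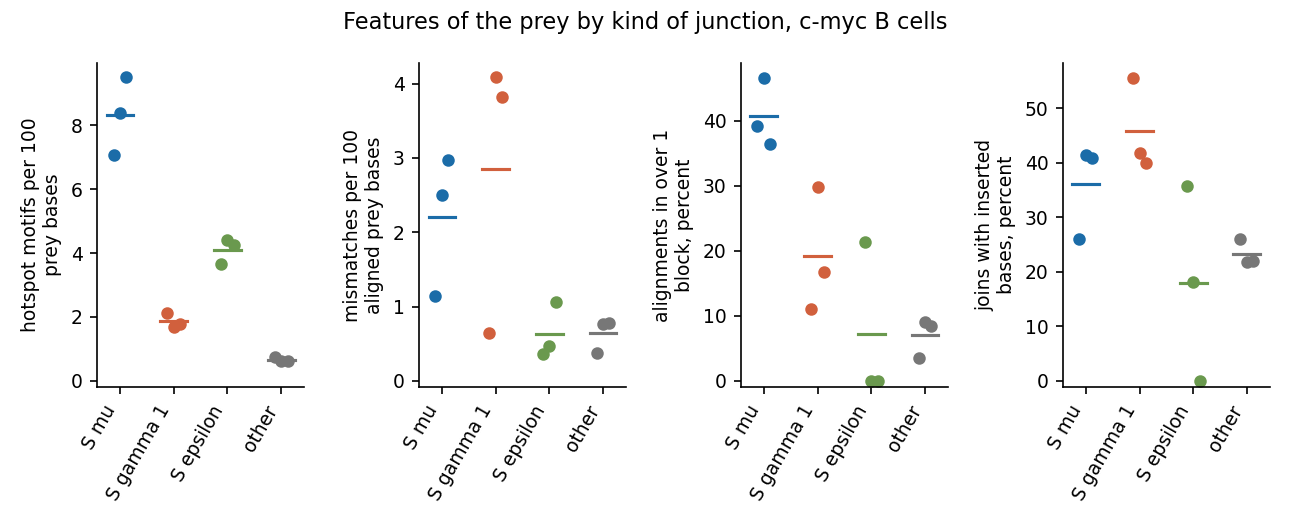
AGCT hotspot motifs and mismatches per 100 prey bases, percent of alignments in more than 1 block, and percent of junctions with an insertion, with 1 point for each B-cell library, for S mu, S gamma 1, S epsilon and other junctions off chromosome 15. The S mu motif density of 7.06 to 9.51 lies above that of the other sets in all 3 libraries.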

How the data were processed

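HTGTS junctions were analysed from 3 c-myc B-cell and 4 c-myc fibroblast libraries. The deposited tables give, for each junction, the read, the prey's position, strand, alignment blocks and label, and an alignment score as the authors' aligner gave it. Positions refer to mm9 per the submitters' processing notes. The aligner, filters and removal of duplicates are not given in the labels used here. Start positions were taken as 0-based, and the first prey base (1-based) as the junction. Junctions were counted by line, so depth is the number of lines, 562 to 2918 per library.

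Shares carry 95% Wilson intervals. Groups were compared by exact permutation of libraries, and values within B cells by exact sign flips, two-sided, with Benjamini-Hochberg adjustment over 13 tests. The known bait letters were the words of 10 bases shared by at least 20 reads that do not lie on chromosome 12, in bait stretches of at least 60 bases. All member junctions entered the counts, and those named were the examples printed. The members and lists were chosen with earlier results of these data known. Alternatives left out each library, pooled lines, widened the regions by 5 kb, kept prey of 100 or more aligned bases, or changed the word threshold. No genome was given, so reference letters come from the alignments. Python 3.11.15, numpy 2.4.6, pandas 2.3.3, SciPy 1.17.1 and matplotlib 3.10.9 were used.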

Additional observations from a re-analysis of the deposited data

How the results depend on the processing

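Of 142 values recomputed under another setting, 135 kept their direction and 7 reversed, in 3 of the 13 results. Many of these could not reverse, so the tally does not measure stability. Fibroblast shares were 0 in every cell type comparison. Within B cells, dropping repeated lines or taking members by coordinates gave the same values as the main setting. No setting could pass 0.05 with so few libraries, so the p-values say nothing about stability, and pooled lines carry no p. The S gamma 1 share against an even split turned from -3.53 to 5.65 points without replicate 14 (range -9.14 to 5.65 over libraries left out), 5.05 with prey of 100 or more aligned bases and 0.72 with lines pooled. The plus-strand difference of S mu minus S gamma 1 turned from 0.65 to -2.90 without replicate 36 (range -2.90 to 2.66), -7.00 with longer prey and -1.40 with regions widened by 5 kb. The microhomology difference turned from -4.02 to 1.80 with longer prey. The cause was not tested. Longer prey left values within B cells to 2 libraries, since replicate 14 kept 1 S mu junction and 0 at S gamma 1. The widening and the word thresholds were chosen after seeing the data. No paired analysis was possible because B-cell and fibroblast libraries share no replicate number. The cell type difference in both regions off chromosome 15 ranged from 15.9 to 26.1 points over its alternatives, with exact permutation p from 0.0571 to 0.133. For S gamma 1 alone the range was 7.21 to 14.6 points, with exact permutation p from 0.0571 to 0.286. Its highest p came with prey of 100 or more aligned bases, where replicate 14 stood level with the fibroblasts at 0. The number of libraries limits the tests. Depth limits single shares, as the minus-strand share of the 9 S gamma 1 junctions of replicate 14 had an interval of 18.9% to 73.3%.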

Other observations

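Within 5 kb of the labelled regions lay 10 further B-cell junctions that carry neither label, 7 around S mu and 3 around S gamma 1. At S mu 5 of them lay on the telomeric side, between 114665017 and 114666758, and 2 on the centromeric side, at 114658534 and 114658622. Around S gamma 1 the positions were 114567399, 114577214 and 114577469. Counting them as members could not reverse a cell type difference, because they all came from B cells. It turned the plus-strand difference of S mu minus S gamma 1 from 0.65 to -1.40 points.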
